A study of Homo sapiens with 121 samples.

Results

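The long telomere group comprises 81 of the 121 single human embryonic stem cells (hESCs) of the study, and its members are all cells that carry the label Long in the expression table. Every cell came from the line WA26, which the study kept without feeder cells on Matrigel in E8 medium, and no treatment or genetic change is given for any of them. In scT&R-seq, polyadenylated RNA is pulled out of a lysed cell on oligo-dT beads and amplified by a Smart-seq2 protocol, while the genomic DNA left behind is used to measure telomere repeats against Alu repeats by quantitative PCR, the T/R ratio. The authors sorted the cells into long, medium and short telomere cells by that ratio, and the ratios themselves were not used here. The deposited values are called TPM, a unit that by definition is scaled to gene length, and add up to a near-constant sum within each cell. The methods text names scaling by library size instead, but the smallest value above 0 of a gene fell with its exon length, from a median of TPM 0.36 in the 3540 shortest of 14154 genes to TPM 0.11 in the 3537 longest (rho = -0.439 across genes). A smallest value also depends on how many cells hold the gene. That number was not held equal, so that the fall does not settle the scaling. Levels of different genes are set side by side as TPM, the name the values carry. The paper reports reads and mapping for its libraries, but the values read here hold no counts, and the depth of each cell was not used. The labels name no culture, passage or plate, so that the 81 cells are members of 1 sample and not replicates, and all values below describe the spread among these cells without a test.

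Human embryonic stem cells divide without limit and are held undifferentiated by a small circuit of transcription factors with POU5F1, SOX2 and NANOG at its centre. They express telomerase, and their telomeres are covered by the shelterin proteins, of which TERF1 binds the double-stranded repeats directly. Because these cells cycle with a short G1 phase, transcripts of DNA replication and of mitosis are abundant in culture, and each mitotic transcript is made mainly from late S phase until the cell divides.

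The long telomere cells differed widely in how many genes were seen. A gene was called detected in a cell above TPM 1. The number of detected genes was 4002 in the lowest cell, 9165 in the median cell and 11515 in the highest, with a mean of 8296 ± 2152 (SD over 81 cells). The cells fell on both sides of 8000 detected genes, a border taken from earlier results of the same data: 51 cells had 8064 to 11515 detected genes and 30 cells had 4002 to 7686. Genes above TPM 10 numbered 2058 in the lowest cell, 5609 in the median cell and 6393 in the highest. Because the number of detected genes moves with many of the values below, medians and correlations are given for the 51 gene-rich and the 30 gene-poor cells beside those of all 81 cells, and the part that detection plays in each was not tested.

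Of 25610 genes in the part of the table read, 6123 (23.9%) were above TPM 1 in no long telomere cell, and 5219 of these were at 0 throughout. A further 2048 genes were above TPM 1 in a single cell and 3768 in 2 to 8 cells. At the other end 665 genes, or 2.6% of those listed, were above TPM 1 in every cell, with a median mean level of TPM 456. The 51 gene-rich cells shared 3195 genes at this level. Ribosomal protein genes made up much of the common core: 76 of 86 were above TPM 1 in all 81 cells, and together they held 9.83% of all TPM in the lowest cell, 25.8% in the median cell and 30.6% in the highest. Their share had a median of 27.2% in the gene-rich and 15.7% in the gene-poor cells.

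**Figure D1:**
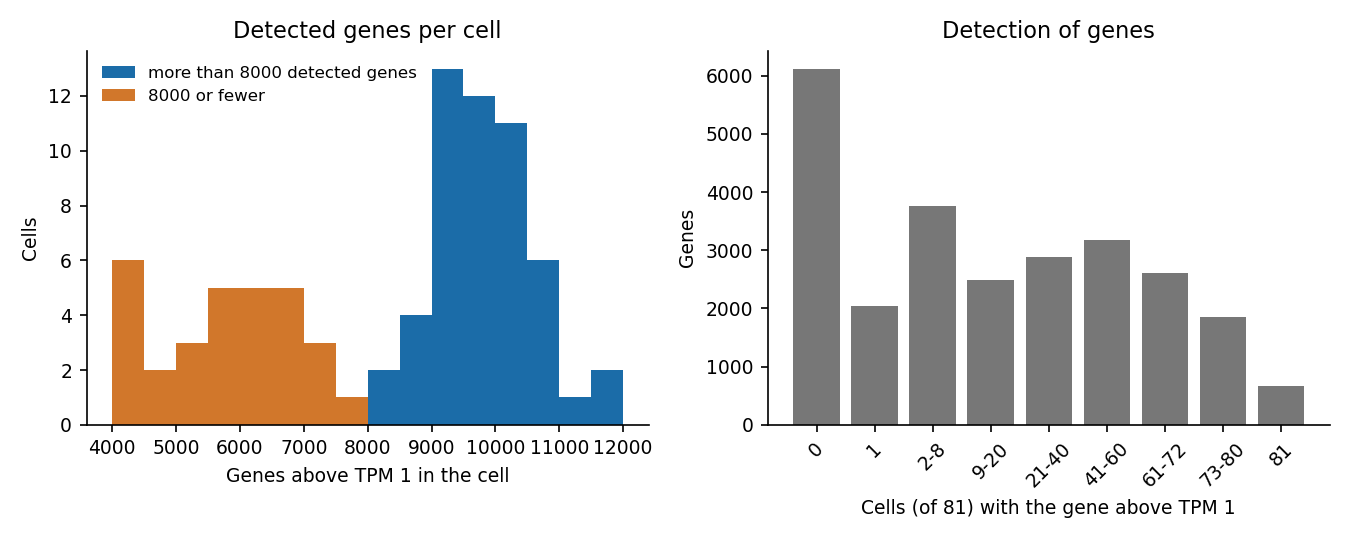
The left histogram shows the number of genes above TPM 1 in each of the 81 long telomere cells, with the 51 cells above 8000 in blue and the 30 others in orange, and the right bars show how many genes were above TPM 1 in a given number of cells. The cells spread from 4002 to 11515 detected genes, and 6123 genes were detected in none of them while 665 were detected in all.

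The highest mean levels belonged to MIR4461 (mean TPM 17696) and TMSB4X (TPM 17450.0), followed by MIR6723 (TPM 8608). TMSB4X encodes thymosin beta 4, which binds free actin. It was at TPM 7197, 15193 and 51126 in the lowest, the median and the highest cell. The 2 microRNA symbols are annotated in nuclear stretches that resemble mitochondrial DNA, and whether their reads came from mitochondrial transcripts was not tested. The other 7 of the 10 highest genes were ribosomal: RPL5, RPS27, RPS12, RPLP1, RPL41, RPS3A and RPS18, with mean levels from TPM 5136 to TPM 6320.4. Of the 25 highest genes, 17 encoded ribosomal proteins.

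Whole profiles of 2 long telomere cells correlated at a median Pearson's r of 0.762 on the log2(TPM + 1) scale over 3240 pairs, with a lowest value of 0.416 and a highest of 0.912. No 2 cells held identical values. The median was 0.838 among the gene-rich cells, 0.641 among the gene-poor cells and 0.698 between the sets, so that gene-poor cells resembled gene-rich cells more closely than each other.

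The 5 genes taken as hESC markers were present in nearly every long telomere cell. POU5F1, the transcription factor OCT4 (GRCh37 chr6:31132114-31148508, minus strand), was at TPM 179.6, 1248 and 1965 in the lowest, the median and the highest of the 81 cells. NANOG, its partner in the pluripotency circuit (chr12:7940390-7951742, plus strand), was at TPM 0.780, 205 and 702. LIN28A, an RNA-binding protein that blocks let-7 maturation (chr1:26737308-26756219, plus strand), was at TPM 3.24, 227 and 364. These 3 genes had their low ends in different ranges: the lowest POU5F1 level was near the median levels of NANOG and LIN28A while 1 cell had NANOG under TPM 1. DNMT3B, a de novo DNA methyltransferase that marks primed hESCs (chr20:31350191-31397165, plus strand), was at TPM 0.650, 143 and 405. TERF1, the shelterin protein TRF1, was at TPM 340.5, 619.5 and 2276, so that its lowest cell exceeded the median level of NANOG. All 5 were above TPM 1 in 80 or 81 cells, and the data do not go against the label of hESCs.

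The markers spread to different degrees. The coefficient of variation (CV, SD over mean of TPM across the 81 cells) was 30.6% for POU5F1, 40.8% for LIN28A, 42.1% for DNMT3B, 47.9% for TERF1 and 53.8% for NANOG, against a median of 102% over all 6190 genes with mean TPM 10 or more. By CV, POU5F1 was the steadiest of the 5 and NANOG the most uneven, while by the squared CV against a curve fitted over genes, described below, TERF1 was the most uneven at 0.585 times the curve and NANOG stood at 0.533 times. In the gene-rich and gene-poor cells the median TPM was 1325 and 961 for POU5F1, and 221 and 165 for NANOG. It was 247 and 162 for LIN28A, and 145 and 136 for DNMT3B. TERF1 ran the other way, with a median TPM of 577 in the gene-rich and 794 in the gene-poor cells. The ranges of the 2 sets overlapped for every marker. The markers showed little common movement from cell to cell: Spearman's rho over their 10 pairs had a median of -0.0313 in the 51 and -0.0498 in the 30 cells, and the highest pair, POU5F1 with LIN28A, had rho = 0.268 over the 81 cells, 0.248 over the 51 and -0.0817 over the 30.

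**Figure D2:**
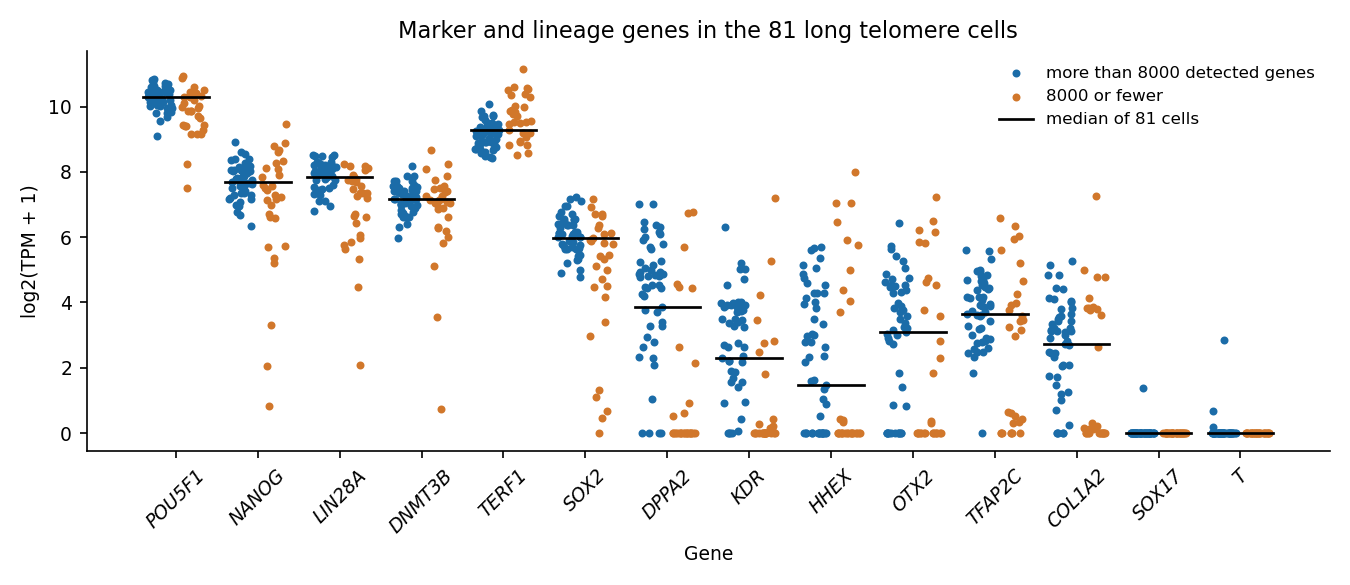
Levels of 5 hESC markers, SOX2, DPPA2 and 7 genes of other lineages are plotted as log2(TPM + 1), with 1 point for each of the 81 long telomere cells, blue for the 51 cells with more than 8000 detected genes, orange for the others, and a line at the median. The markers lie in tight clouds in the gene-rich cells and reach lower in the gene-poor cells except for TERF1. KDR, HHEX, OTX2 and COL1A2 run from cells at 0 through cells at low values to cells well above 0.

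Of 22 core pluripotency genes, a list that includes POU5F1, NANOG, LIN28A and DNMT3B, 14 were above TPM 1 in at least 73 cells and 6 in all 81. Of all 25610 genes, 7.26% were above TPM 1 in 73 to 80 cells and 2.6% in all 81. SOX2, the partner of OCT4 on DNA, was at TPM 0, 61.5 and 148 and detected in 78 cells, all 3 exceptions being gene-poor. DPPA4 (TPM 77.9, 311 and 612) and TDGF1, the NODAL co-receptor (TPM 192, 796 and 1900.1), were detected in every cell. CDH1, the epithelial cadherin that holds hESC colonies together, had a CV of 48.1%, and the lowest squared CV of the list against the fitted curve described below, 0.233 times. Lower in level were SALL4 (median TPM 24.2), PRDM14 (TPM 24.2) and UTF1 (TPM 1.38, 48 cells). TERT, the reverse transcriptase of telomerase, had the lowest mean and was above TPM 1 in 9 cells, with a highest value of TPM 7.44.

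Of the fitted genes of the same list, LEFTY1 alone was called more variable than the fitted curve, and it is described here with the other ligands and inhibitors of NODAL signalling. NODAL, a TGF-beta family ligand, was above TPM 1 in 47 of the 51 gene-rich and 7 of the 30 gene-poor cells and reached TPM 129.6. LEFTY1, a target and inhibitor of NODAL signalling, was at TPM 0, 0.460 and 543 and detected in 27 gene-rich and 6 gene-poor cells. The highest cell held 28.8% of the LEFTY1 signal. LEFTY2 was detected in 25 cells and reached TPM 64.0. LEFTY1 and NODAL formed the pair of highest rho among the core pluripotency genes, with 0.647 over the 81 cells, 0.474 over the 51 and 0.642 over the 30. GDF3, a related ligand, ran from TPM 0 to 751 with a median of 89.7, and had about the same median in the gene-rich (82.0) and the gene-poor (93.4) cells.

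Of 15 genes associated with the naive state, 9 were above TPM 1 in at most 8 cells. Of all 25610 genes, 23.9% were above TPM 1 in no long telomere cell, 8.0% in 1 and 14.7% in 2 to 8 cells. KLF17 and KLF2, transcription factors of the early embryo, were each detected in 1 cell, DNMT3L in 2 and ESRRB in 3. Some members were common. DPPA2 was detected in 47 gene-rich and 8 gene-poor cells with a median TPM of 26.9 in the former, and NR5A2, a nuclear receptor, in 49 and 9. DPPA5 and DPPA3 were patchy: DPPA5 was above TPM 1 in 39 cells and reached TPM 519, and DPPA3 in 30 cells and reached TPM 433. Medians were 0 for both, so that fewer cells carried them than lacked them.

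Marker genes of other cell types, in lists of 10 genes each, had low summed levels in the median cell. The counts of genes in at most 8 cells stand beside the shares of all 25610 genes. These were 23.9% in no cell, 8.0% in 1 and 14.7% in 2 to 8 cells. Of the mesoderm and mesendoderm list, 8 genes were above TPM 1 in at most 8 cells, HAND1 was at 0 throughout, and the summed level was TPM 0, 13.4 and 145 in the lowest, the median and the highest cell. T (brachyury) was detected in 1 cell and EOMES in 2. The exceptions were KDR, a VEGF receptor, in 51 cells at a median of TPM 3.93, and MIXL1 in 32 cells. The endoderm list summed to TPM 0, 7.16 and 258, with 7 genes in at most 8 cells, GATA6 at 0, SOX17 in 1 cell, FOXA2 in 2, and HHEX, a homeobox factor, in 43 with a highest value of TPM 256. The ectoderm list had the highest median cell of these 3 lists and summed to TPM 0, 45.7 and 228. Of its 10 genes, 5 were in at most 8 cells, close to the share over all genes. NEUROG2 was at 0 and PAX3 was in 1 cell, but OTX2 was detected in 51 cells, SIX3 in 57 and NES, an intermediate filament gene, in 69. OTX2 and NES are also known to be transcribed in primed hESCs.

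Trophoblast genes summed to TPM 0, 15.9 and 98.7. Of the list, 8 genes were in at most 8 cells and TP63 was at 0. TFAP2C, a transcription factor that pluripotent cells also use, was detected in 67 cells and KRT7 in 30. Fibroblast genes summed to TPM 0, 7.54 and 162, and 7 of them were in at most 8 cells. LUM and TWIST1 were at 0 and FAP was above TPM 1 in no cell, although COL1A2, a chain of type I collagen, was detected in 56 cells. At most 2 mesoderm, 2 endoderm, 2 trophoblast and 1 fibroblast genes exceeded TPM 10 in the same cell, whereas at least 3 ectoderm genes did so in 18 cells.

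Variability was scored by the squared CV of TPM against a curve fitted over genes, a constant of 0.326 plus 46.8 divided by the mean TPM, which allows weak genes more spread. Of the 6190 fitted genes, 524 (8.47%) had a squared CV of at least 2 times the curve and are called more variable, and 2450 (39.6%) had at most 0.5 times the curve and are called less variable. The median gene was at 0.603 times the curve. In 45 of the more variable genes a single cell held over 50% of the summed TPM, and 14 were above TPM 1 in at most 8 cells. Of the less variable genes, 322 were above TPM 1 in every cell. With the curve fitted again in the 51 gene-rich cells, 343 genes were more variable, 122 of them shared with the 524 (23.3% of the 524 and 35.6% of the 343), and 1395 were less variable, 1030 of them shared (42.0% and 73.8%).

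Genes at the top of the variability order were short or patchily detected. SNORD25, a small nucleolar RNA, had a squared CV of 58.3 times the curve: it was at 0 in the median cell, above TPM 1 in 15 cells and at TPM 5597 in 1 cell, which held 78.5% of its signal. MIR3185 followed at 54.2 times the curve with 22 cells. The next 2 were the histone genes HIST1H2BD (34.2 times) and HIST1H4C (30.7 times). The list of 10 went on with LOC105373383, SNAR-C4, MIR1279, and MIR4444-1 with MIR4444-2, which held identical values and whose copies cannot be told apart by reads. INSIG2, a regulator of cholesterol synthesis, closed it at 19.8 times the curve. INSIG2 was detected in 51 cells at a median of TPM 3.98, but 1 cell reached TPM 1662 and held 67.6% of the signal, and over the gene-rich cells its highest value was TPM 93.4.

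Symbols of microRNAs, small nucleolar and similar RNAs made up 76 of the 524 more variable genes (14.5%), 0 of the 2450 less variable genes and 95 of all 6190 (1.53%). The median exon length was 3086 bases among more variable genes with a length, 6045 bases among less variable genes and 4733 bases among all. Exons summed to under 200 bases in 33 of 470 more variable genes (7.02%) and in 45 of all genes with a length (0.744%). For so short a feature few reads make a high TPM, and mature microRNAs carry no poly(A) tail. The part of length in these values was not tested.

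The steadiest genes against the curve were LSM8, MACF1, RPL15, LOC55338, TAOK1, MAB21L3, MDN1, WWC2, LOC101929415 and ENAH. LSM8, a subunit of the ring that binds U6 RNA, had a squared CV of 0.0732 times the curve at a median level of TPM 11.5. RPL15, a protein of the large ribosomal subunit, was at TPM 29.2, 1667 and 2186 with a CV of 18.3%. A different ranking, the SD of log2(TPM + 1) among the 665 genes seen in every cell, put RPS14 first at 0.30, then RPS10 (0.31), RPS15 (0.33), HSP90AB1 (0.34) and RPL36 (0.34). HSP90AB1 is the constitutive cytosolic HSP90, and it ranged from TPM 874 to 2677. At the other end stood UBE2C (1.77), OCIAD2 (1.75), EXOSC5 (1.73), ADI1 (1.64) and TMEM160 (1.64). UBE2C, the ubiquitin-conjugating enzyme of the anaphase-promoting complex, was at TPM 2.31, 641 and 3371.

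**Figure D3:**
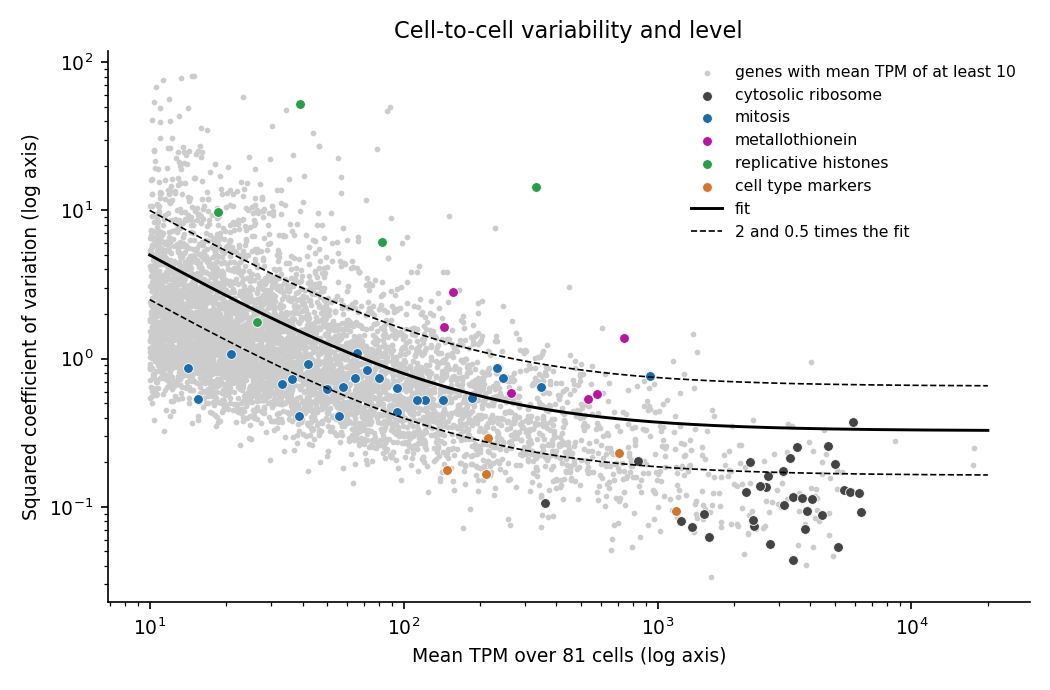
Each grey point is a gene with mean TPM 10 or more, plotted by its mean TPM over the 81 long telomere cells and its squared coefficient of variation, both on log axes, with the fitted curve as a solid line and 2 and 0.5 times the curve as dashed lines. Ribosomal genes (dark) lie low at high levels with 25 of 33 at or under 0.5 times the curve (39.6% of all fitted genes), the markers (orange) lie under the curve, and the replicative histones (green) and metallothioneins (purple) lie mostly above it.

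By gene list, the median squared CV relative to the curve was lowest for the markers (0.305) and the cytosolic ribosome (0.337), with 3 of 5 and 25 of 33 fitted members less variable and none more variable. For all list counts here, the shares over all 6190 fitted genes were 39.6% less and 8.47% more variable, and several lists were near them. Core pluripotency genes were at 0.416, with 10 of 19 less and 1, LEFTY1, more variable. Actin and thymosin genes were at 0.452 (7 of 12 less), the CCT chaperonin at 0.460 (4 of 8 less), glycolysis at 0.489 (10 of 19 less) and the respiratory chain at 0.502 (16 of 33 less). DNA replication (0.602, 7 of 19 less) stood next to the median of all genes, 0.603, and mitosis (0.711, 8 of 24 less) and the proteasome (0.754, 11 of 31 less) stood above it. Telomerase and assembly genes were at 0.535 (3 of 10 less), secreted ligands at 0.668 (2 of 9 less, LEFTY1 more), the IFITM genes at 0.721 and p53 targets at 0.770 (1 of 5 less). Of the lineage lists, 3 ectoderm genes could be fitted, at a median of 0.391, and under 3 alternative settings they lay above the median of all genes. The endoderm and trophoblast lists had 1 fitted gene each, HHEX at 1.58 and TFAP2C at 0.375. Lists near that median changed sides with the setting. Of 8 alternatives, the proteasome lay below it in 6 (from -0.41 to -0.11 relative to it on the log2 scale, against 0.32), mitosis in 3 (down to -0.35, with median ratio scaling), and the IFITM genes in 2 (-0.51 with mean TPM 1 or more and -0.84 with median ratio scaling). Telomerase genes lay above it in 4 (up to 0.31), and the respiratory chain in 1 (0.045, with mean TPM 100 or more). At the top were naive-associated genes (1.43, 4 fitted), shelterin (1.76, 5 fitted), metallothioneins (1.90, 3 of 6 more variable) and replicative histones (6.83, 4 of 5 more variable). Over the gene-rich cells alone the median of all genes was 0.752, with shelterin (0.845, 4 fitted), telomerase (0.866) and mitosis (1.07) above it and the proteasome (0.628) below it. Histones (12.7) and metallothioneins (4.06) were again the highest. Genes were filtered again by mean TPM in these cells, so that the 2 shelterin values cover different members.

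Among energy genes, the glycolytic enzyme LDHB was one of the steadiest, at TPM 616, 3624 and 5702 with a CV of 23.5%. GAPDH was at TPM 1154, 3084 and 7992. ALDOC was the only more variable gene of the list, detected in 61 cells with a highest value of TPM 594. In the respiratory chain all 33 genes were above TPM 1 in at least 73 cells, and their sum ranged from TPM 25935 to 57787. NDUFA13, a complex I subunit, was more variable (2.17 times the curve) with median TPM 723 in the gene-rich and 1812 in the gene-poor cells. In the proteasome 3 of 31 genes were more variable, PSMC5, PSMD4 and PSMD6, against 8.47% of all fitted genes. Over the gene-rich cells none of these 4 genes of respiration and protein degradation was among the more variable.

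Telomere genes other than TERF1 were detected in part of the cells. Of 9 shelterin and telomere-binding genes, TERF1 alone was above TPM 1 in at least 73 cells. Of all genes, 7.26% were above TPM 1 in 73 to 80 cells and 2.6% in all 81. TERF2, the other repeat-binding protein, was at TPM 0, 3.43 and 167 and detected in 56 cells. POT1, which binds the single-stranded overhang, was detected in 48 cells, and the CST members CTC1 and OBFC1 in 33 and 47. TINF2, the bridge of the complex, was more variable (2.38 times the curve) and reached TPM 417, but over the gene-rich cells it was at 1.03 times the curve with a highest value of TPM 69.6. The same values for TEN1 were 2.04 and 1.07. The 10 pairs of the 5 fitted genes had a median rho of -0.0134.

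Telomerase assembly factors contrasted with the enzyme itself. TERC, the RNA template, was detected in 8 cells and TERT in 9. TERC is not known to carry a long poly(A) tail, and the part of oligo-dT capture in its detection was not tested. NOP10 was at TPM 5.13, 695 and 3519 and NHP2 at TPM 17.0, 447 and 2679, both being proteins of box H/ACA particles. Their medians were higher in the gene-poor cells, 1199.8 against 655 for NOP10 and 771 against 387 for NHP2. DKC1, the pseudouridine synthase of the same particle, was at TPM 0.430, 67.0 and 378. SSB, the La protein, was the least variable of the list, with a CV of 33.7%. The list summed to a median of TPM 2811 and its 45 pairs had a median rho of 0.0846.

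Mitosis genes moved together from cell to cell. Over the 24 genes the median rho of 276 pairs was 0.366 in the 81 cells, 0.403 in the 51 and 0.256 in the 30, against medians over all pairs of fitted genes of 0.0680, 0.0114 and 0.0411. A rho of at least 0.5 was reached by 15.9%, 27.2% and 7.61% of the mitosis pairs, and by 0.312%, 0.0714% and 0.958% of all pairs. The points share the libraries and TPM sums to a near-constant in each cell. UBE2C and TOP2A, the topoisomerase that untangles sister chromatids, formed the highest pair with 0.727 over the 81 cells, 0.869 over the 51 and 0.529 over the 30. CDK1, the kinase that drives entry into mitosis, had the highest median rho with the other members (0.495) and MELK the lowest (0.0891). The summed level of the list was TPM 168 in the lowest, 2551 in the median and 7803 in the highest cell.

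Single mitosis genes ranged widely in level. CCNB1, the B-type cyclin of CDK1, was at TPM 1.77, 296 and 1727 and detected in every cell. CDK1 was at TPM 0, 176 and 831, with medians of 281 in the gene-rich and 24.5 in the gene-poor cells. CDC20, an activator of the anaphase-promoting complex, was at TPM 0, 77.4 and 364, and PLK1, a mitotic kinase, at TPM 0, 49.8 and 245. MKI67 was lower, at TPM 0, 16.1 and 48.7, and was the least variable of the list at 0.160 times the curve. UBE2C was the 1 member called more variable, at 2.02 times the curve in the 81 and 5.61 in the 51 cells, where CDK1 was at 3.08 times.

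Promoters of cell cycle genes are known to carry CCAAT boxes and the cell cycle homology region (CHR), here searched as TTTGAA or TTCGAA, in both cases on either strand in the 300 bases from 250 before to 50 after the start. RefSeq promoters (GRCh38.p14) matched 20 of the 24 mitosis genes. CCAAT occurred in 16 (80.0%) and a CHR in 13 (65.0%), and both occurred in 12 (60.0%). Among the 5033 promoters of fitted genes the shares were 39.1%, 11.5% and 5.21%, and among all 27305 promoters CCAAT stood in 35.7% and a CHR in 16.6%. DNA replication genes (18 of 21 matched) had CCAAT in 61.1% and a CHR in 11.1%. Because these genes moved together, 3 promoters are printed to show the motifs, CCNB2 (chr15:59104896-59105195), PLK1 (chr16:23678639-23678938) and CDC20 (chr1:43358731-43359030), all on the plus strand, with CCAAT or its complement ATTGG and each CHR or its complement in capitals. A match is a description of the letters in this window.
CCNB2: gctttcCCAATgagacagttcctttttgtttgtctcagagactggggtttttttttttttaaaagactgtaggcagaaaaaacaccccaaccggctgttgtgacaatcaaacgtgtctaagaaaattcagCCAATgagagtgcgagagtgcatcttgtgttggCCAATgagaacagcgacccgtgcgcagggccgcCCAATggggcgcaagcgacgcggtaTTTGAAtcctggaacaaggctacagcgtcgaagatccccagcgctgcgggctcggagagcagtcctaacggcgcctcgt
PLK1: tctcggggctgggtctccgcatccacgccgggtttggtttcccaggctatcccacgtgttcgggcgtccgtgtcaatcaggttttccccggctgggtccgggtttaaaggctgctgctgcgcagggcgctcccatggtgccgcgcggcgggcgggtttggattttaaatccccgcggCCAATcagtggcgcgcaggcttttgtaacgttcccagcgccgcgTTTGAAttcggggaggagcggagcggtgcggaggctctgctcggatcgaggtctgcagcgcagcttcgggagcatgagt
CDC20: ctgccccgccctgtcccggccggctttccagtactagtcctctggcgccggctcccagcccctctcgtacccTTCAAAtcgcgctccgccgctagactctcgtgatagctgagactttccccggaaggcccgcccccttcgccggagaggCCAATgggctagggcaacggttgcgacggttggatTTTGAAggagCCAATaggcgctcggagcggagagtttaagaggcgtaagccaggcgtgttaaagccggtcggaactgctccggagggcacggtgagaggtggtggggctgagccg

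DNA replication genes formed a looser group. Their 171 pairs had a median rho of 0.119 in the 81, 0.144 in the 51 and 0.119 in the 30 cells. PCNA, the sliding clamp, was at TPM 0.420, 446 and 1556, and MCM4, a subunit of the replicative helicase, at TPM 0.340, 58.7 and 192. PCNA with MCM4 had rho = 0.380 over the 81 cells, 0.527 over the 51 and 0.243 over the 30. CLSPN, a checkpoint adaptor, and CCNE1, the G1/S cyclin, formed the highest pair in the 81 cells with rho = 0.429 over the 81 cells, 0.358 over the 51 and 0.364 over the 30. GINS2 was the more variable member, with medians of TPM 103 in the gene-rich and 279 in the gene-poor cells.

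In the gene-rich cells most pairs of a replication and a mitosis gene had a negative rho. Of 456 pairs with 1 gene from each list, 384 (84.2%) had a rho below 0, and 8 were at or under -0.5. Their median was -0.172, against 0.0114 over all pairs of fitted genes. The shares of all fitted pairs below 0 or at or under -0.5 were not counted. Between mitosis and metallothionein genes 77.1% of pairs were below 0 (median -0.0894), and between mitosis and chaperonin genes 46.35%. All 8 pairs at or under -0.5 held MCM4 or FEN1, such as UBE2C with MCM4 (-0.609), TOP2A with MCM4 (-0.561) and CDK1 with FEN1 (-0.519). Some pairs were positive, such as RRM2 with BUB1B (0.388), RRM2 with CDK1 (0.302) and RRM1 with KIF11 (0.279). Scores of the 2 lists (mean of log2(TPM + 1) over members) had a rho of -0.588 over these 51 cells. In the 30 gene-poor cells 41.7% of the pairs were below 0, the median was 0.0437 and the scores had a rho of 0.343. Over all 81 cells the median was -0.0540 and the scores had a rho of 0.0575. With the number of detected genes regressed out, the scores had a rho of -0.3575 over the 81 cells. By set, the opposed pattern was seen in the gene-rich cells and not in the gene-poor cells. Both lists also followed the number of detected genes over the 81 cells, with score rho of 0.598 for mitosis and 0.508 for replication, of 0.170 and 0.157 over the 51, and of 0.546 and 0.478 over the 30.

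**Figure D4:**
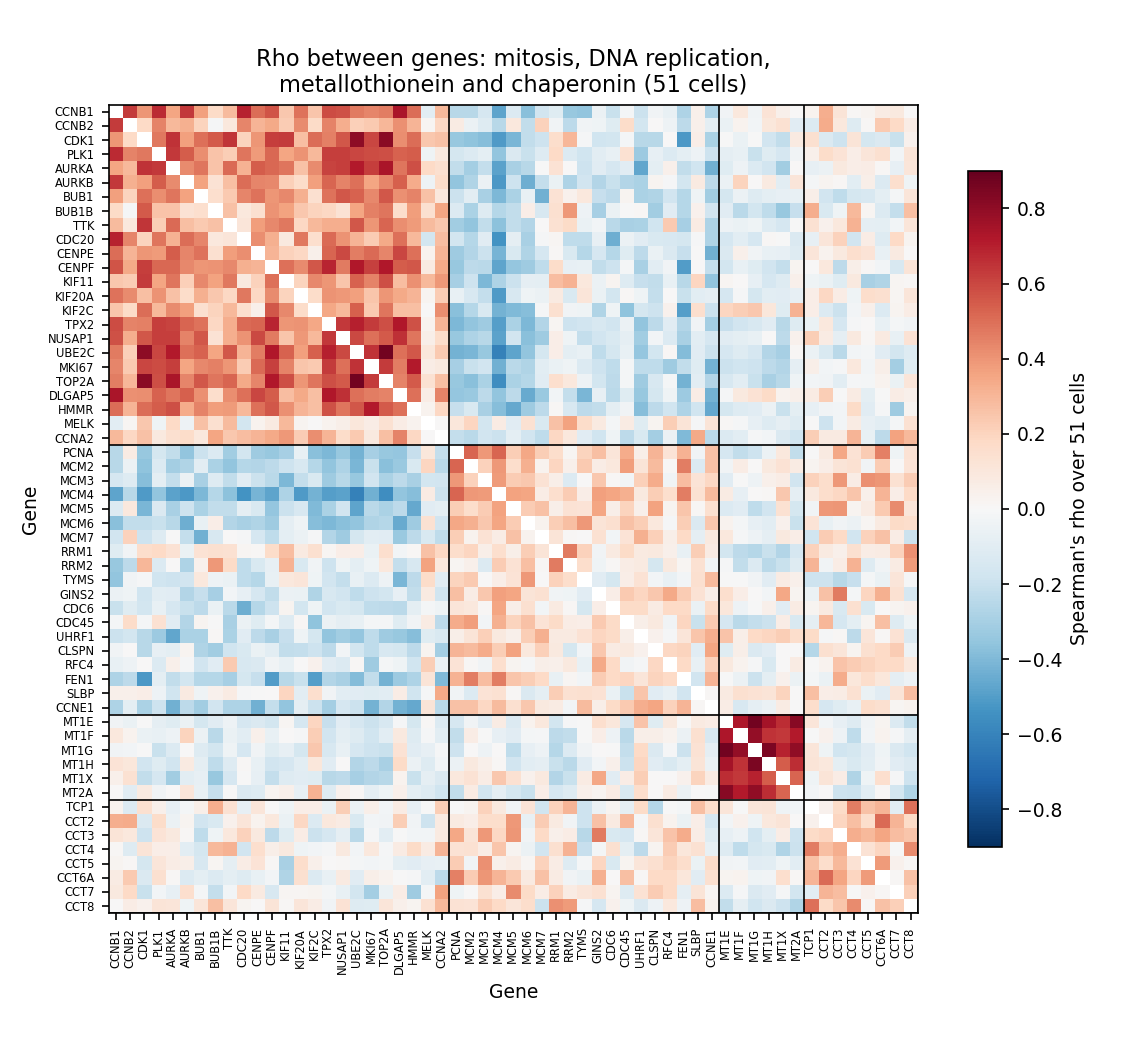
The colour of each square is Spearman's rho over the 51 gene-rich cells between 2 genes of the mitosis, DNA replication, metallothionein and chaperonin lists, which are set apart by black lines, with red for positive and blue for negative rho. The mitosis block is red apart from 5 of 276 pairs below 0, 4 of them with MELK, the metallothionein block is red throughout, and the field between mitosis and DNA replication is mostly blue with 384 of 456 pairs below 0. The median over all pairs of fitted genes in these cells was 0.0114.

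Replicative histone genes were the most uneven list against the fitted curve, but not with the variance of log2(TPM + 1), where metallothioneins led (2.37 against 0.63 relative to all genes, log2), nor with mean TPM 1 or more, where naive-associated genes (1.73) and metallothioneins (1.15) stood above histones (1.12). HIST1H4C was at TPM 0, 34.6 and 8160.4 in 66 cells, with a median of 24.0 in the gene-rich and 129 in the gene-poor cells. HIST1H2BK, the next in level, was detected in 53 cells and reached TPM 1578, and HIST1H2AC was in 31 cells. HIST1H2BD was detected in 24 cells, and 1 of them held 80.0% of its signal. Most transcripts of these genes end in a stem-loop in place of a poly(A) tail, so that oligo-dT capture sees the minor polyadenylated forms, and the part of this in the spread was not tested. The 10 pairs of the 5 fitted genes had a median rho of 0.0250, while the score of the list had a rho with that of DNA replication of 0.511 over the 81, 0.405 over the 51 and 0.280 over the 30 cells.

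Metallothioneins, small cysteine-rich proteins that bind zinc and copper, covaried more closely than any other list examined here. Their 15 pairs had a median rho of 0.640 in the 81, 0.716 in the 51 and 0.504 in the 30 cells. A rho of at least 0.5 was reached by 93.3%, 100% and 53.3% of these pairs, against 0.312%, 0.0714% and 0.958% of all pairs. All 6 genes lie in 1 cluster on GRCh37 chr16, from the start of MT2A at 56642496 to the end of MT1X at 56718108. Their copies are near-identical in sequence, so that reads may be shared between them, and how far this adds to rho was not tested. MT1E with MT1G stood highest with 0.823 over the 81 cells, 0.871 over the 51 and 0.654 over the 30.

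The spread of the metallothioneins was wide. MT2A was at TPM 0, 492 and 2083 and MT1X at TPM 0, 494 and 2160.3, each detected in 79 cells. MT1G, median TPM 412, was at 0 in the lowest and at TPM 3583 in the highest cell, and was detected in 51 of 51 gene-rich but 19 of 30 gene-poor cells. MT1H went from TPM 0 to 1656 with 45 gene-rich and 8 gene-poor cells. MT1F (median TPM 246) and MT1E (TPM 80.0) lay between. The sum of the 6 genes was TPM 5.76 in the lowest, 1925 in the median and 8300.0 in the highest cell. MT1E, MT1G and MT1H were more variable than the curve, at 2.52, 3.52 and 4.48 times, and over the gene-rich cells they were at 6.15, 6.83 and 11.2 times. Their high variability was thus also present among the gene-rich cells.

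Metallothionein promoters are known to carry metal response elements. RefSeq held promoters for 3 of the 6 genes, and they are printed because the genes moved together: MT2A (chr16:56608334-56608633), MT1X (chr16:56682220-56682519) and MT1H (chr16:56669564-56669863), GRCh38.p14, plus strand. Capitals mark the core TGCACNC or TGCGCNC, searched on both strands and chosen after the values were seen. The core matched 8 times in MT2A, 4 times in MT1X and 8 times in MT1H. It occurred in 39.7% of the 5033 promoters of fitted genes and 29.3% of all promoters, and at least 4 matches were found in 43 of the 5033 (0.854%). With 3 of the 6 genes lacking a promoter, no share is drawn for the list.
MT2A: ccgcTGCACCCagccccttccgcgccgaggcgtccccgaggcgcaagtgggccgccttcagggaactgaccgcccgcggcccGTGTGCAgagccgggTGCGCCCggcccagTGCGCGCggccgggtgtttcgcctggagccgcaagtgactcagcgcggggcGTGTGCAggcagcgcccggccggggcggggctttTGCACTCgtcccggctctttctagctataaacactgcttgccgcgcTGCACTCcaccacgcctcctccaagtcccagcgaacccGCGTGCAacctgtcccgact
MT1X: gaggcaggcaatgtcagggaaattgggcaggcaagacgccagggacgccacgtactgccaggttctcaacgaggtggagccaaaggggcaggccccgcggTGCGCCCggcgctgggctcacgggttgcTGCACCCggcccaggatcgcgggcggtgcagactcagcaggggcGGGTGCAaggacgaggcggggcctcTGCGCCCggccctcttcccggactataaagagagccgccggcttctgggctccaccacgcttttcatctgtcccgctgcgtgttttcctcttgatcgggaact
MT1H: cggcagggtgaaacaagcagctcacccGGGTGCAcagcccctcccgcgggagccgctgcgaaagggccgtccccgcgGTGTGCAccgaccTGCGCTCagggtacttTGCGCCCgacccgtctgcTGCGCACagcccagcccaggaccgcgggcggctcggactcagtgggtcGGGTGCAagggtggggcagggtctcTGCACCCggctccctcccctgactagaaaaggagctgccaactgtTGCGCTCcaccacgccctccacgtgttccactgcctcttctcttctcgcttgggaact

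Housekeeping complexes covaried to different degrees. Cytosolic ribosome genes had a median rho of 0.468 over 528 pairs in the 81 cells, with 43.8% at or above 0.5, but 0.209 and 8.52% in the 51 cells and 0.364 and 28.6% in the 30. Of all pairs, 0.312%, 0.0714% and 0.958% were at or above 0.5 in the 81, the 51 and the 30 cells. RPL4 with RPLP0 stood highest with 0.880 over the 81 cells, 0.827 over the 51 and 0.464 over the 30. The CCT chaperonin, whose 8 subunits fold actin and tubulin, had a median of 0.146 in the 81, 0.255 in the 51 and 0.115 in the 30 cells, with the pair TCP1 and CCT8 at 0.455 over the 81 cells, 0.499 over the 51 and 0.490 over the 30. The proteasome was at 0.127, 0.187 and 0.0670, with PSMB6 and PSMD4 at 0.673 over the 81 cells, 0.510 over the 51 and 0.640 over the 30. The respiratory chain was at 0.101, 0.0934 and 0.0814, with COX6A1 and ATP5J2 at 0.752 over the 81 cells, 0.598 over the 51 and 0.655 over the 30. In the gene-rich cells each of these 4 medians was below that of the mitosis genes (0.403), whereas the ribosome was above the mitosis genes over the 81 (0.468 against 0.366) and the 30 cells (0.364 against 0.256).

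**Figure D5:**
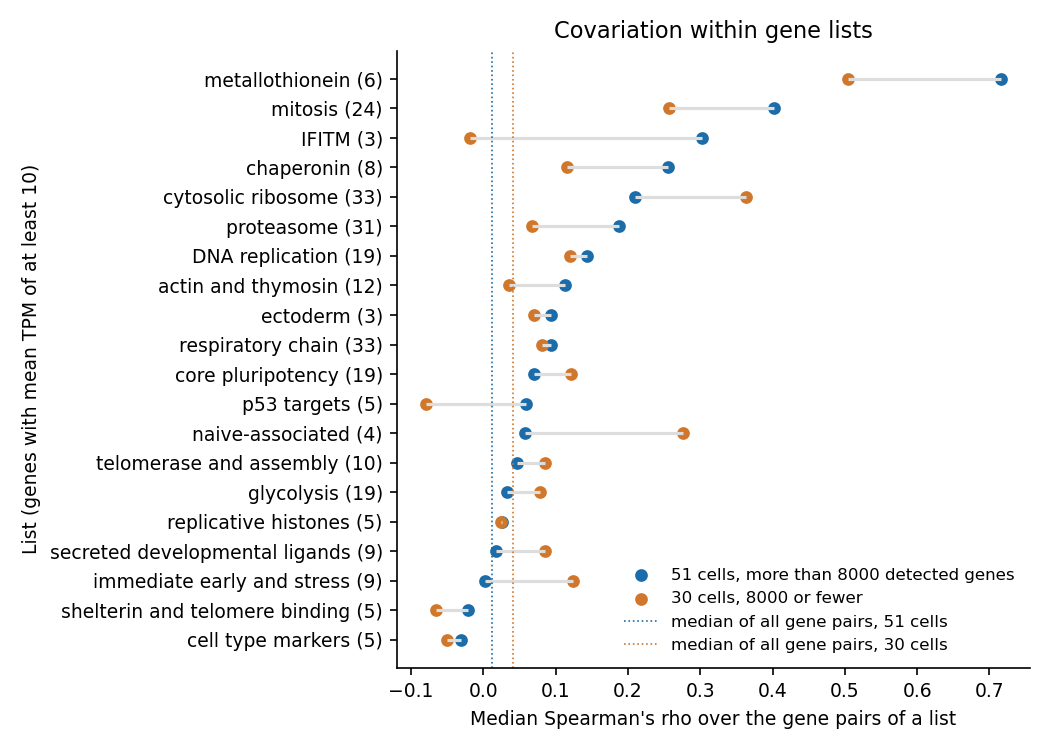
For each gene list the blue point is the median Spearman's rho over its pairs of genes in the 51 gene-rich cells and the orange point that in the 30 gene-poor cells, with dotted lines at the medians over all pairs of genes and the number of fitted genes in brackets. Metallothioneins (0.716 and 0.504) and mitosis genes (0.403 and 0.256) lie to the right in both sets, cytosolic ribosome (0.364) and naive-associated genes (0.276) lie right of mitosis in the gene-poor cells, and shelterin genes and markers lie left of 0.

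Scores of whole lists were related in some cases, and only some of the many pairs of lists are named. Many scores also followed the number of detected genes, as glycolysis did with 0.326 in the 51 and 0.685 in the 30 cells. With that number regressed out over the 81 cells, mitosis with glycolysis went from 0.635 to 0.339. Core pluripotency with naive-associated genes went from 0.681 to 0.384, and chaperonin with proteasome from 0.263 to 0.311. Mitosis and glycolysis scores had a rho of 0.398 in the 51 and 0.452 in the 30 cells, and mitosis with immediate early and stress genes had 0.427 and 0.536. Chaperonin and proteasome had 0.428 and 0.319. Chaperonin with the cytosolic ribosome reversed between the sets, with -0.501 in the 51 and 0.463 in the 30 cells. Core pluripotency and naive-associated scores had 0.423 and 0.623. The marker score had a rho with DNA replication of 0.0391 in the 51 and 0.319 in the 30 cells, and with mitosis of 0.0792 and 0.321.

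Many genes followed the number of detected genes. Over the 81 cells 502 of 6190 genes (8.11%) had a rho of at least 0.5 with it and 62 (1%) a rho of at most -0.5. With detected genes counted above TPM 0 instead of TPM 1, 173 and 17 genes did so. The level of every gene is a share of a near-constant sum, and both measures come from the same library. In the 51 cells 9 genes (0.145%) reached 0.5 and 8 (0.129%) reached -0.5, and in the 30 cells 384 (6.2%) and 8 (0.129%) did. The 502 genes had a median rho of 0.221 in the 51 and 0.410 in the 30 cells, and the 62 had -0.280 and -0.326, against 0.0531 and 0.195 for all 6190 genes. Both sets of genes were chosen by their rho over the same cells. Of the ribosomal protein genes, 52 of 82 fitted were among the 502 and 0 among the 62.

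RPL31, a protein of the large subunit, had the highest rho with detected genes, 0.723 over the 81 cells, 0.440 over the 51 and 0.362 over the 30. PRDX1, a peroxiredoxin, had 0.713 over the 81 cells, 0.319 over the 51 and 0.426 over the 30. SNHG12, a host gene of small nucleolar RNAs, was detected in 49 gene-rich and 10 gene-poor cells. RPS12 had a median TPM of 8208 in the gene-rich and 1297 in the gene-poor cells. RPL34 was the last of these 5. At the negative end, STMN1, which destabilizes microtubules, had -0.676 over the 81 cells, -0.577 over the 51 and -0.130 over the 30. MDK, the growth factor midkine, had a median TPM of 513 in the gene-rich and 2717 in the gene-poor cells. SERF2, the splicing factor gene U2AF1 and the proteasome gene PSMD4 completed the list. U2AF1 kept a negative sign in both sets, with -0.630 over the 81 cells, -0.483 over the 51 and -0.317 over the 30, whereas SERF2 did not, with -0.653 over the 81 cells, -0.322 over the 51 and 0.224 over the 30.

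The genes most like 5 anchors were listed by Spearman's rho over the 81 cells among the 6190 fitted genes. For POU5F1 these were SS18, LINC00371, PTGES3, ACTG1 and NREP, with SS18, a chromatin remodelling subunit, at 0.573 (0.374 in the 51 and 0.595 in the 30 cells). For NANOG they were SRSF1, NAA50, ACTR2, MTHFD2 and GPATCH8, with SRSF1, a splicing factor, at 0.549 (0.518 and 0.514). For TERF1 they were HMGB1, LOC729348, MDK, RARRES2 and NDUFA12, with HMGB1, a chromatin protein, at 0.565 (0.398 and 0.340). HMGB1, like TERF1, had a higher median in the gene-poor cells (TPM 1344 against 559). CCNB1 had the closest partners: MRPS18B at 0.696 (0.601 and 0.774), KPNA2 at 0.628, ARL6IP1 at 0.623, CDC20 at 0.610 and RTCB at 0.599. For PCNA, CANX stood at 0.513 (0.330 and 0.562), followed by NOL11, TM9SF3, DERA and ZDHHC6, and no replication gene was among its 5 over the 81 cells. The 99th percentile of rho over all genes was between 0.330 and 0.428 for the 5 anchors.

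Stress and signalling genes differed in reach. Of 20 immediate early and stress genes, HSP90AA1 (TPM 7.90, 1835 and 2826), HSPA8 and HSPA5 were detected in every cell. FOS, an immediate early transcription factor, was in 49 cells at a median of TPM 7.46 and reached 247, JUN was in 36 and FOSB in 4. IER3 was detected in all 51 gene-rich but 13 of the 30 gene-poor cells. The 9 fitted genes had a median squared CV of 0.928 times the curve, which was just under the median of all genes when only genes with mean TPM 100 or more were kept, and a median rho of 0.0709. Of 12 p53 targets in the table, CDKN1A, the p21 inhibitor, was above TPM 1 in 2 cells, whereas PMAIP1, the cell death gene NOXA, was at TPM 1.98, 294 and 734 and in all 81.

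Among secreted ligands, SFRP2, a WNT inhibitor, was the most common, at TPM 0.640, 171 and 511 in 80 cells. FGF2 was detected in 62 cells and FGF19 in 71, while BMP4 was in 16 and DKK1 in 1. CYR61 and CTGF, targets of YAP signalling, had rho = 0.563 over the 81 cells, 0.413 over the 51 and 0.471 over the 30. The IFITM genes, antiviral membrane proteins, were all detected in every cell. IFITM1 was at TPM 671, 2733 and 26694, with a median of 2281 in the gene-rich and 5623 in the gene-poor cells. It was more variable than the curve over the 81 cells (2.81 times) but not over the 51 (0.771 times). IFITM3, at TPM 872, 2703 and 6774, was less variable. IFITM1 had rho = 0.282 over the 81 cells, 0.303 over the 51 and 0.578 over the 30 with IFITM3, and -0.390 over the 81 cells, -0.291 over the 51 and -0.0189 over the 30 with IFITM2.

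Over the 81 cells genes of actin and its partners were among the steady lists, at a median of 0.452 times the curve. Over the gene-rich cells they were nearer to all genes, at 0.674 against 0.752 times. There 2 of 12 were less variable, against 1395 of all 6190 fitted genes. CFL1, the actin-severing protein cofilin, had a CV of 24.8% at a median of TPM 1572, and TMSB10 had 29.0%. PFN1, profilin, was higher in the gene-poor cells, with a median TPM of 2618 against 1594, and PFN1 with MYL6 had rho = 0.529 over the 81 cells, 0.472 over the 51 and 0.680 over the 30. ACTB and ACTG1, the cytoplasmic actins, had 0.426 over the 81 cells, 0.531 over the 51 and 0.408 over the 30. Their medians were TPM 3828 and 2262, and their lowest cells were at 1004 and 625.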

How the data were processed

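The authors deposited 1 table of TPM values for 121 single cells, with 2 decimals and no read counts. The methods name TopHat on hg19 with HTSeq counts over RefGene genes, whereas the submitters' processing notes list TopHat2 and RSEM without versions, so that the step that gave TPM is not settled. Scaling to gene length was checked from the smallest values of genes above 0 in at least 9 cells. Genes were read in alphabetical order to ZFR (25610 genes, with 1 incomplete row left out), and later symbols were not analysed here. Per long telomere cell these genes added up to between TPM 984910 and TPM 995466.

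A gene was detected above TPM 1, and logarithms were log2(TPM + 1). For genes with mean TPM 10 or more the squared CV was fitted as a1/mean + a0 by gamma regression, the form named in the study's methods, and genes at 2 times or 0.5 times the fit were counted. Covariation was Spearman's rho over cells. The scripts were tested on simulated data and ran in Python 3.11.15 with scipy 1.17.1, matplotlib 3.10.9, pandas 2.3.3 and numpy 2.4.6. Groups came from the cell titles, and no test was run because the group is 1 sample.

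The members, the gene lists and the border of 8000 detected genes were chosen with earlier results of these data known. Named genes were the markers, the 10 highest by mean, the 10 most and 10 least variable (above TPM 1 in at least 9 cells), the 5 highest and 5 lowest by SD among genes seen in every cell, the 5 highest and 5 lowest by rho with detected genes, up to 4 members of each list, and 5 partners of each anchor. Other list members named in the text were chosen after their values were seen. Gene positions are GENCODE on GRCh37. Alternatives were other detection limits, pseudocounts, expression filters, variability and correlation measures, scaling by median ratios, and either set of cells. The T/R ratios, the medium and short telomere cells and 1 p53 target (ZMAT3) were not used here. The value of 1 list member is not reported here.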

Additional observations from a re-analysis of the deposited data

How the results depend on the processing

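TPM keeps no reads, so that no counting error could be given, and at low levels detection limits every value. Genes seen in every cell numbered 1015 above TPM 0, 354 above TPM 10 and 3195 in the 51 gene-rich cells, against 665. Detected genes had a median of 5609 above TPM 10 and 5889 in the 30 gene-poor cells, a set chosen for this use after seeing the data. With detected genes counted above TPM 0, 173 genes had a rho of at least 0.5 and 17 of at most -0.5. The correlation of 2 cells had a median of 0.636 over genes with mean TPM 10 or more and 0.641 in the gene-poor cells. With mean TPM 1 or more, 1266 genes were more and 5648 less variable and 1467 had a rho of at least 0.5 with detected genes. With a mean of at least 100 these were 108, 346 and 96, since other numbers of genes were fitted. A running median gave 1174 and 752 and the variance of log2(TPM + 1) 194 and 519. The gene-rich cells gave 343 and 1395, with 9 genes at or above 0.5 and 8 at or under -0.5, and the gene-poor cells 8 at or under -0.5. Median ratio scaling gave 4116 less variable genes. Relative to the median of all genes (log2), ectoderm variability turned from -0.63 to 0.015 with a mean of at least 1, 0.076 for log variance and 0.77 with median ratios, and immediate early genes from 0.62 to -0.031 with a mean of at least 100. IFITM covariation relative to all pairs turned from 0.118 to -0.168 with Pearson's r and -0.0530 in the gene-poor cells. The cause was not tested for these. Of the other values by list, 35 for variability and 16 for covariation moved by more than 0.5 (log2) or 0.1 (rho), while 114 and 116 moved less, and all 25 alternative values of the markers moved by less than 1 SD. No paired analysis was possible because 1 group was described and cell numbers only name cells.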
